A study of Mus musculus with 4 samples.

Results

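Light-chain B cells of the fetal mouse liver are described here: cells that carry transcripts of an immunoglobulin light chain and almost none of the surrogate light chain that precedes it. A barcode was taken as such a cell when it held at least 300 detected genes, at most 25% mitochondrial counts, under 30% haemoglobin counts, at least 1 unique molecular identifier (UMI, 1 counted transcript molecule) each of Cd79a and Cd79b, at least 5 UMIs of Igkc, Iglc2 and Iglc3 together, and at most 1 UMI of Igll1 and Vpreb1 together. This held for 1565 of 17239 fetal barcodes, of which 11228 passed the filters on genes, mitochondrial and haemoglobin counts and 3380 also held Cd79a and Cd79b. Since measured counts chose the cells, the levels of those genes, and differences from cells chosen by the opposite counts, are a description and not a finding.

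The study compared livers of male offspring of control mothers (Ctrl) with those of mothers in an intrauterine hyperglycemia model (IHG), late in gestation at E18.5 (the fetal libraries) and at 8 weeks of age (the adult libraries). Each of the 4 groups is 1 droplet library, pooled from 3 pregnant mice or 3 adults per group, so the spread between animals was not measured and no difference could be tested. Livers were digested with collagenases, DNase and hyaluronidase and treated to lyse erythrocytes, and adult livers were perfused through the portal vein first. Strain, genotype and the way hyperglycemia was produced are not given in the labels used here.

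B lymphopoiesis takes place in the fetal liver before the bone marrow takes it over. A precursor first pairs its immunoglobulin heavy chain with the surrogate light chain, made of the Vpreb and Igll1 products, and divides. It then leaves the cycle, opens the kappa locus and, where that fails, the lambda loci to the Rag1/Rag2 recombinase, and reaches the immature stage when a true light chain joins the mu heavy chain (Ighm) on the surface together with the Cd79a/Cd79b signalling pair. Class II antigen presentation genes, surface receptors such as Ms4a1 (CD20) and, later, IgD (Ighd) and CD23 (Fcer2a) follow as the cell matures.

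The kappa chain has a single constant gene, Igkc (GRCm38 chromosome 6, 70726435 to 70726966, plus strand), and the lambda chain has several. The last 120 coding bases of the 3 lambda constant genes, up to the stop codon, are shown because they set how far the counts can tell these genes apart. Coordinates are GRCm38 with the GENCODE M21 annotation, all on the minus strand, and capitals mark bases that differ from Iglc3 at the same position.
Iglc1, chr16:19061752-19061871: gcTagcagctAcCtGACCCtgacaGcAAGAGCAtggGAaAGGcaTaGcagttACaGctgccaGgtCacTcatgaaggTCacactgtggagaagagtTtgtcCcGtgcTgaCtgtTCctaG
Iglc2, chr16:19198536-19198655: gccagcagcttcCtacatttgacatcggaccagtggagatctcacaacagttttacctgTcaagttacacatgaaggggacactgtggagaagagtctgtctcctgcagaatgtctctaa
Iglc3, chr16:19065365-19065484: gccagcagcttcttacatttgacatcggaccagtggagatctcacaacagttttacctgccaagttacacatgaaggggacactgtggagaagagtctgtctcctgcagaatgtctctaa
Iglc1 differed from Iglc3 at 39 of these 120 positions and Iglc2 at 2. Over the whole coding stretch Iglc2 and Iglc3 were 96.2% identical, and after the stop codon, which a 3′ assay also reads, 90% over 140 aligned positions, so their separate counts are uncertain and depend on how reads that match both were assigned. The selection rule counted Igkc, Iglc2 and Iglc3 but not Iglc1, so a cell whose light chain counts came from Iglc1 alone is not among the cells described.

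The fetal libraries held 8500 barcodes in Ctrl and 8739 in IHG, with median totals of 6645 and 9116 UMIs, and the adult ones 5245 and 6851, with medians of 2558 and 2235. The fetal light-chain B cells had median totals of 3161 UMIs and 1231 genes in Ctrl and 3455 UMIs and 1308 genes in IHG, and together 5197337 and 2113547 UMIs. The fetal libraries shared 19 barcode sequences, and no barcode was a light-chain B cell in both. Intervals given below are exact 95% intervals (Clopper-Pearson for shares, conditional Poisson for ratios of counts), and they and the limits set by a count of 0 cover counting error only.

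Light-chain B cells were a smaller share of the IHG fetal library. They were 1171 of 4912 cells that passed the filters in Ctrl, 23.8% (22.7 to 25.1), and 394 of 6316 in IHG, 6.24% (5.65 to 6.86). The log2 ratio of the shares was -1.93 (-2.10 to -1.77). Among cells with Cd79a and Cd79b they were 52.0% of 2253 in Ctrl and 34.96% of 1127 in IHG, a log2 ratio of -0.57 (-0.74 to -0.41), so the lower share was also seen within the B lineage. Pre-B cells, defined by at least 2 surrogate light chain UMIs and under 5 light chain UMIs, numbered 531 and 434, and the number of light-chain B cells per pre-B cell gave a log2 ratio of -1.28. Scrublet, a doublet caller, marked 31 Ctrl and 15 IHG light-chain B cells. A share depends on how many other cells each suspension held, and fewer B cells and more of other cells cannot be told apart.

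**Figure D1:**
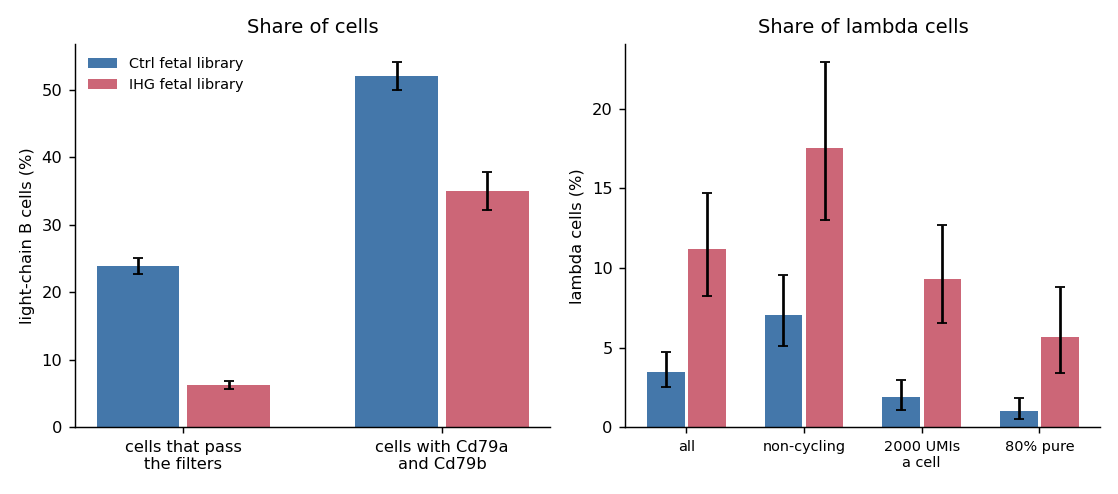
Left, light-chain B cells as a percentage of fetal cells that pass the filters and of fetal cells with Cd79a and Cd79b; right, lambda cells as a percentage of light-chain B cells, over all, non-cycling cells, cells thinned to 2000 UMIs, and with an 80% purity rule. Bars are 1 library each and error bars are exact 95% binomial intervals for counting error; the IHG bar is the lower one on the left (6.24% against 23.8%) and the higher one on the right (11.2% against 3.50% over all cells).

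The marker genes named for the cell type were present, though not all in most cells. Ighm, the mu heavy chain, had a UMI in 99.7% of Ctrl and 100% of IHG cells. Ly6d, a surface protein that marks B commitment, was found in 69.3% and 81.2%, Spib, an Ets-family transcription factor of the B lineage, in 51.8% and 47.0%, and Cd74, the class II invariant chain, in 43.9% and 45.7%. When each cell was thinned to 2000 UMIs, which left out 216 and 18 shallower cells, Cd74 had a UMI in 32.6% and 38.8%. Mature neutrophils of the same libraries should lack these genes. They were taken by at least 5 Retnlg UMIs, at least 1 Cxcr2 UMI and no Cd79a or Cd79b UMI. Among them Cd74 had a UMI in 3.04% of 296 and 2.77% of 794 cells, and Ly6d in 3.38% and 1.89%. Their median totals were 6488.5 and 6795.5 UMIs. Background of this kind reached further for the kappa chain, since Igkc had a UMI in 10.1% and 3.27% of those neutrophils. At least 5 light chain UMIs stood in 0.139% and 0.0227% of cells without Cd79a and Cd79b UMIs. Leaving out cells with a Cd79a or Cd79b UMI can lower these background rates, and by how much was not tested.

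Genes of later stages were rare or missing. Ighd had a UMI in 12.98% and 16.8% of cells, Fcer2a had 2 UMIs in each fetal library, and Cr2, the complement receptor CD21, had 3 and 2. Jchain, the joining chain of secreted antibody, had 0 UMIs in both, which allows up to 0.577 and 1.42 CPM (counts per 1000000 UMIs of the summed cells). Dntt, the terminal transferase that adds bases at junctions in adult marrow, had no UMI in Ctrl and 2 UMIs in IHG. The recombinase gene Rag1 was still found in 26.7% and 35.8% of cells, and Il7r, the receptor for the precursor growth factor interleukin 7, in 61.9% and 68.5%. Many cells were also dividing, so the cells cover a range from dividing cells with few light chain counts to non-dividing cells with many, and they are called light-chain B cells here instead of by the stage name.

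At the edges of the rule some values were close on either side and others were not. Ctrl cells with 5 to 6 light chain UMIs numbered 72 and had 754 CPM of Ly6d and 235 CPM of Cd74, and the 59 cells with 3 to 4, just outside, had 676 and 219. In IHG the 18 cells just inside had 1043 CPM of Ly6d and 113 CPM of Cd74, and the 11 just outside had 1205 and 136. Cycling, as defined below, differed more at that IHG edge, with 55.6% inside and 18.2% outside, as did Ighm, with 2109 and 1224 CPM, while in Ctrl 54.2% and 47.5% cycled. At the other edge, the 177 Ctrl and 58 IHG cells with exactly 1 surrogate light chain UMI had 159 and 117 CPM of Cd74, and the 99 and 44 cells with 2 to 3 such UMIs, just outside, had 145 and 84.9. In IHG Ly6d had 712 CPM inside and 491 CPM outside that edge, and Spib 119 and 59.7 CPM.

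RNA of other lineages was present and uneven. Cells with at least 1% neutrophil, 5% haemoglobin or 0.5% monocyte and myeloid progenitor counts numbered 109 in Ctrl (9.31%) and 25 in IHG (6.35%), and they held 19.8% and 13.2% of the light-chain B cells' UMIs. The 10 neutrophil genes summed to 25192 CPM in Ctrl and 17139 CPM in IHG, and 94.1% and 89.3% of those UMIs lay in 46 and 17 cells. Without the cells with RNA of other lineages the neutrophil sums were 1663 and 1938 CPM. The 10 hepatocyte genes summed to 127 and 308 CPM with all cells and 135 and 322 CPM without those cells. T and NK cell genes summed to 10.4 and 12.8 CPM, with Cd3e, Trbc1, Klrb1c and Ncr1 at 0 in both libraries. The gene lists without these cells are given beside the comparisons where they were computed.

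Dividing cells mostly had a low light chain level and non-dividing cells a high one. A cell was called cycling when it held at least 3 UMIs of 20 G2/M genes such as Mki67 and Top2a. By that count 620 of 1171 Ctrl cells cycled, 52.9% (50.04 to 55.8), and 149 of 394 IHG cells, 37.8% (33.0 to 42.8). After thinning to 2000 UMIs, the shares were 56.3% of 955 and 31.6% of 376. The thinned set left out 216 Ctrl and 18 IHG cells with fewer UMIs. Thinning only removes counts, so the higher Ctrl share reflects the cells left out. Mature neutrophils, which do not divide, gave 18.2% and 16.5% by the same count and 12.9% and 10.8% after thinning. Their median totals were higher, at 6488.5 and 6795.5 UMIs, and whether their G2/M counts are background was not tested. Pre-B cells gave 45.0% and 43.8%, or 38.3% and 29.1% after thinning, and adult light-chain B cells 1.81% and 1.88%.

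Cells were then placed in 4 bins by light chain UMIs per 10000 UMIs, with limits of 30, 60 and 100 that were chosen after the values were seen. In Ctrl, from the lowest to the highest bin, there were 317, 372, 203 and 279 cells and 87.7%, 63.4%, 37.9% and 10.4% of them cycled. In IHG there were 91, 103, 52 and 148 cells, and 87.9%, 43.7%, 21.2% and 8.78% cycled. The highest bin held 23.8% of Ctrl and 37.6% of IHG cells. Median totals were lower in the higher bins, from 5896 to 2217 UMIs in Ctrl and from 8619 to 2735 in IHG, so bins differ in depth as well, and the part of depth in the bins' values was not tested.

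Class II and surface maturation genes were higher with the light chain level. Cd74 had 200.7, 308, 698 and 2526 CPM over the Ctrl bins and 91.6, 301, 1103 and 3429 CPM over the IHG bins. Ms4a1, which encodes the CD20 channel-like protein, had 8.24, 26.1, 104 and 497 CPM in Ctrl, and 878 CPM in the highest IHG bin. Ly6d went from 251 to 4128 CPM in Ctrl and from 389 to 4541 CPM in IHG. The heavy chain gene Ighm differed less, from 1506 to 3787 CPM in Ctrl and from 1158 to 3381 CPM in IHG.

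Recombination and precursor genes had no single direction over the bins. Rag1 was lowest in the lowest bin, at 48.2 CPM in Ctrl, and had 106, 154 and 145 CPM in the others; in IHG the values were 43.2, 165, 290 and 123 CPM. Rag2 rested on 7 to 59 UMIs a bin, with 22.7 CPM in the lowest and 22.4 CPM in the highest Ctrl bin and 25.7 and 14.1 CPM in IHG. Il7r had 292, 448, 413 and 293 CPM in Ctrl and 377, 730, 763 and 324 CPM in IHG, so it was highest in the middle bins. Spib went from 125 to 338 CPM in Ctrl, and in IHG it had 78.2 CPM in the lowest and 226 CPM in the highest bin. Hist1h2ap, a replication-dependent histone gene, went from 5331 CPM in the lowest to 1363 CPM in the highest Ctrl bin and from 2841 to 453 CPM in IHG.

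**Figure D2:**
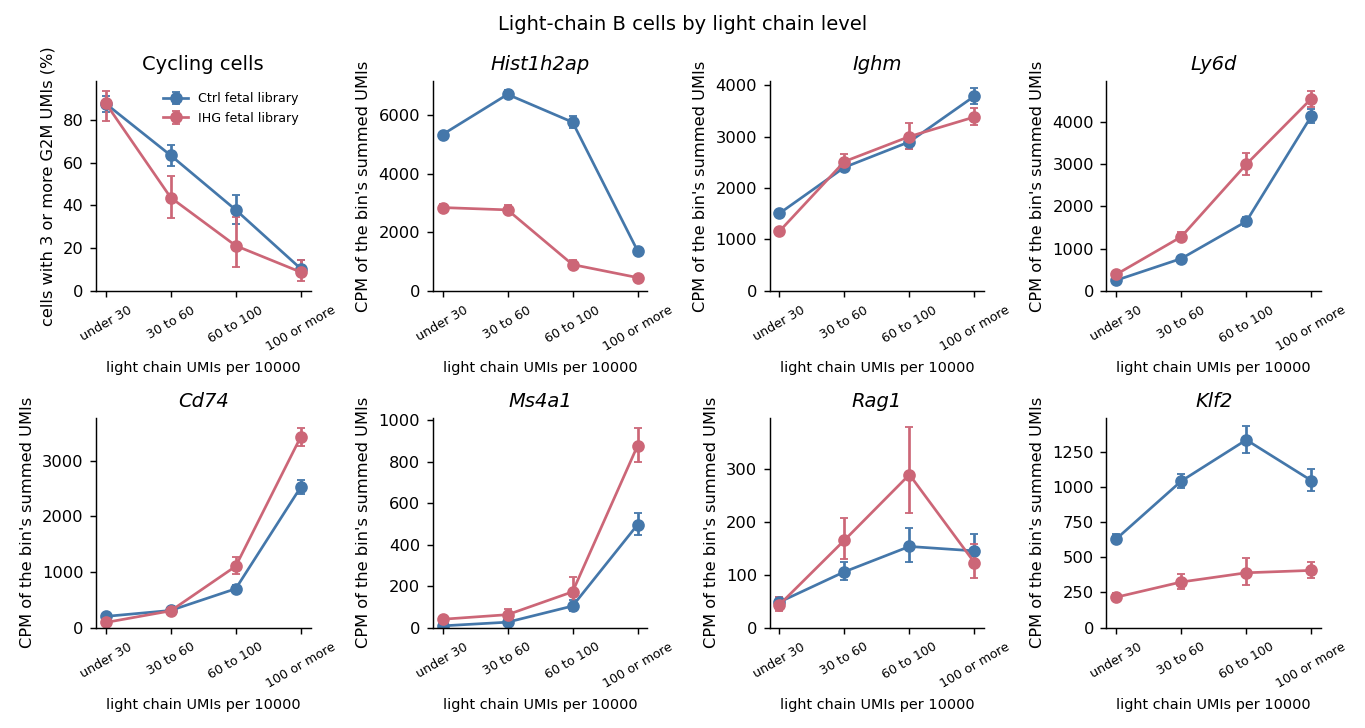
Percentage of cycling cells (first panel) and CPM of 7 genes (other panels, each with its own axis from 0) in fetal light-chain B cells of 4 light chain levels, in UMIs per 10000; lines join the bins of 1 library and bars are exact 95% counting intervals. Cycling cells and Hist1h2ap are lower in the highest than in the lowest bin, Cd74, Ms4a1 and Ly6d are higher, and Klf2 of the IHG library lies below that of Ctrl in every bin.

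The cells were also split into cycling and non-cycling cells. This split is not independent of the bins, since cycling cells were mostly in the lower ones. Cycling and non-cycling cells had median totals of 4999.5 and 2196 UMIs in Ctrl and 6722 and 2826 UMIs in IHG. The part of depth in the values was not tested. Cd74 had 250 CPM in cycling and 1593 CPM in non-cycling Ctrl cells, a log2 ratio of 2.67, and 208 and 2326 CPM in IHG, a log2 ratio of 3.48. Rag1 had 44.3 and 223 CPM in Ctrl and 57.8 and 196 CPM in IHG, so non-cycling cells held 2.33 and 1.75 more on the log2 scale. Ikzf3 (Aiolos), a zinc finger factor of B cell maturation, was higher by 1.77 and 1.60, and Bank1, a scaffold of the B cell receptor, by 3.25 and 2.77. S1pr1, the receptor for exit into blood, was higher by 1.77 and 1.31, and Ccr7, a receptor for lymphoid chemokines, by 1.38 and 1.68. Il7r differed by 0.20 and 0.01 and Cd24a, a surface glycoprotein of young B cells, by -0.07 and -0.01.

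Set beside fetal pre-B cells of the same library, the light-chain B cells had higher class II, receptor and maturation genes and lower surrogate chain, metabolic and early precursor genes. Of 9361 genes with at least 20 UMIs over both sums, 248 (2.65%) were at least 2-fold higher and 495 (5.29%) at least 2-fold lower in both libraries. The cells were divided by surrogate and true light chain counts, so nothing beyond a description is read from these numbers. Cd74 was at 14.6 CPM in pre-B and 589 CPM in light-chain B cells of Ctrl, and at 42.5 and 1008 CPM in IHG (log2 ratios 5.32 and 4.56). Genes of class II presentation had median log2 ratios of 1.79 and 0.94, with 9 of 10 higher in each library, beside medians of -0.05 and -0.06 over all genes.

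B cell receptor and lineage genes followed in part. Ly6d had 79.6 and 1059 CPM in Ctrl and 104 and 1781 CPM in IHG. Fcrla, an intracellular Fc receptor relative, had 62.8 and 453 CPM in Ctrl and 54.0 and 538 CPM in IHG. Spib had 34.7 and 189 CPM in Ctrl and 18.0 and 144 CPM in IHG, and Blk, a Src-family kinase of the receptor, was higher by 2.17 and 1.96 on the log2 scale. Of 27 B identity genes 20 were higher in Ctrl and 21 in IHG, with medians of 1.03 and 1.00, while Ebf1 (log2 -0.11 and -0.12) and Vpreb3 (-0.02 and 0.09) were close to their pre-B level. Ighm was higher by 1.03 and 1.37. Bhlhe41, a factor linked to B-1 cells, was at 0.929 and 19.8 CPM in Ctrl and at 0 and 26.0 CPM in IHG.

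Among the genes that were lower, Vpreb2 is a surrogate chain gene that the rule did not count but that goes with it, at 340 CPM in pre-B and 3.66 CPM in light-chain B cells of Ctrl and at 431 and 4.26 CPM in IHG. Lef1, a transcription factor of precursors, had 222 and 45.6 CPM in Ctrl and 279 and 54.4 CPM in IHG. Erg, an Ets factor of early precursors, was lower, with log2 ratios of -4.26 and -3.16, and the receptor gene Kit had -3.51 and -2.01. Rag1 was lower by less, from 126 to 89.5 CPM in Ctrl and from 208 to 110 CPM in IHG, and Rag2 had log2 ratios of -0.12 and -0.69. Il7r was higher, by 1.11 and 0.64. Of 19 glycolysis genes 17 were lower, with medians of -0.89 and -0.73, and Ldha (lactate dehydrogenase A) had 553 and 167 CPM in Ctrl and 669 and 200 CPM in IHG. The neutrophil list had medians of 1.41 and 0.46 in this comparison. Without cells that hold RNA of other lineages 288 genes were higher and 500 lower, and the class II medians were 1.93 and 1.30 and the glycolysis medians -1.07 and -0.79.

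**Figure D3:**
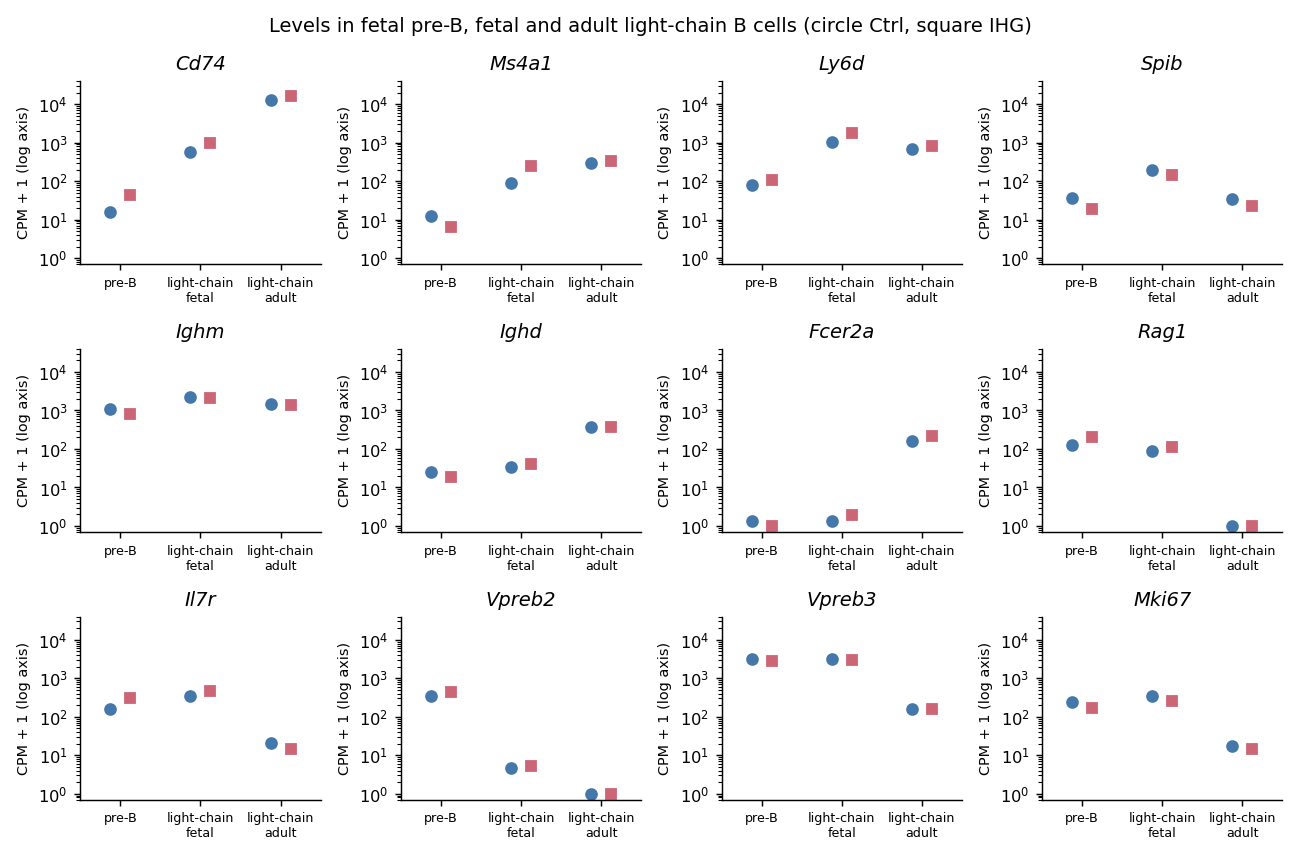
Level of 12 genes (CPM plus 1, log axis) in fetal pre-B cells, fetal light-chain B cells and adult light-chain B cells; a circle is the Ctrl and a square the IHG library, with 1 library per point and no error bar. Cd74 is higher in each class from left to right, Vpreb2 is high in pre-B cells alone, and Rag1 is at 0 in the adult cells.

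Adult light-chain B cells, taken by the same rule (885 in Ctrl and 1381 in IHG), differed more widely. Of 9318 genes, 1889 (20.3%) were at least 2-fold higher and 1232 (13.2%) at least 2-fold lower in the fetal cells in both maternal groups, and age, perfusion, depth and library cannot be told apart here. Genes of class II presentation were lower in the fetal cells for 11 of 11, with medians of -4.39 in Ctrl and -4.17 in IHG, and Cd74 had 589 CPM in fetal and 12848 CPM in adult Ctrl cells. Of 21 maturation genes 19 were lower, with medians of -3.13 and -2.76. Ighd had 33.9 and 378 CPM in fetal and adult Ctrl cells and 39.3 and 379 CPM in IHG, and Fcer2a had 0.385 and 159 CPM in Ctrl and 0.946 and 223 CPM in IHG.

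Jchain and Igha, genes of secreted antibody, had UMIs in the adult cells alone among these light-chain B cells. Jchain had 0 UMIs in both fetal sums and 9064 and 8802 UMIs in the adult ones, so it was at least 5348-fold lower in fetal Ctrl and at least 1629-fold lower in fetal IHG cells, against a floor of 3 UMIs per summed library. The adult cells held 26 and 21 cells with at least 5 Jchain UMIs. Igha, the IgA heavy chain, had 0 fetal UMIs as well, and the 10 adult cells with most Igha held 69.4% of it in Ctrl and 78.2% in IHG.

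Recombination, division and fetal genes were on the other side. Rag1 had 465 and 232 UMIs in the fetal and 0 in the adult sums, at least 87.6-fold higher in Ctrl and at least 139-fold higher in IHG. Lin28b, an RNA-binding regulator of fetal lymphopoiesis, had 40 and 26 fetal and 0 adult UMIs, at least 7.53-fold and 15.6-fold higher. Its partner gene Igf2bp3 was higher by 2.42 and 2.51 on the log2 scale and Arid3a, a factor of fetal B cells, by 2.54 and 2.67. Vpreb3 had 3158 and 154 CPM in fetal and adult Ctrl cells and 2958 and 160 CPM in IHG, and Il7r 351 and 19.4 CPM in Ctrl. Spib, which is among the markers of the fetal cells, had 189 and 33.7 CPM in Ctrl and 144 and 22.1 CPM in IHG. All 20 G2/M genes were higher in the fetal cells, with medians of 4.66 and 4.59. The neutrophil list had medians of 5.25 and 6.47 in this comparison. Without cells that hold RNA of other lineages 1880 genes were higher and 1201 lower, and the class II medians were -4.17 and -4.20.

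Between the maternal groups, the fetal light-chain B cells differed in immediate-early genes, histone genes and a few surface genes. Of 9686 genes measured, 358 (3.7%) were at least 2-fold higher and 337 (3.48%) at least 2-fold lower in IHG, and the median over all genes was 0.11. With 1 library a group these are differences between 2 libraries. Of 20 immediate-early genes, which code for factors that are transcribed within minutes of a stimulus, 18 were lower in IHG and 12 were at least 2-fold lower, with a median of -1.05.

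Fosb, a partner in the AP-1 factor (chromosome 7, 19302696 to 19310051, minus strand), counted 568 UMIs in the Ctrl and 36 in the IHG sum, which is 109 and 17.0 CPM, a log2 ratio of -2.66 (-3.21 to -2.20). It was found in 287 Ctrl cells (24.5%) and 20 IHG cells (5.08%). Fos (chromosome 12, 85473890 to 85477273, plus strand) had 629 and 83 UMIs, or 121 and 39.3 CPM, a log2 ratio of -1.62 (-1.97 to -1.29). Klf2, a zinc finger factor that controls lymphocyte trafficking and quiescence (chromosome 8, 72319033 to 72321656, plus strand), had 4598 and 633 UMIs, or 885 and 299 CPM, a log2 ratio of -1.56 (-1.68 to -1.44). Hes1, a target of Notch signalling, had 182 and 52.0 CPM (log2 -1.80), so it stood among the 8 lowest ratios although it is not on the immediate-early list. Ier3, a stress-inducible survival gene, had 100 and 29.3 CPM (log2 -1.76), and Klf6 140 and 50.6 CPM (log2 -1.47).

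The AP-1 partners Jun, Junb and Jund and the phosphatases were lower to a lesser degree. Jun had 687 and 335 CPM (log2 -1.04) and Junb 513 and 250 CPM (log2 -1.03), while Jund, which is transcribed more steadily, had 2854 and 2326 CPM (log2 -0.29). Dusp1 and Dusp2, phosphatases that switch off MAP kinases, had log2 ratios of -1.17 and -1.06. Egr1, with 53.9 and 16.1 CPM, Atf3, with 43.5 and 12.3 CPM, and Klf4, with 48.9 and 12.3 CPM, differed by more than these. The nuclear receptors Nr4a1, often read as a report of receptor signalling in B cells, with 28.1 and 29.8 CPM, and Nr4a2 (log2 0.03) differed little, as did Egr3 (log2 -0.10), so the list did not move as 1 block.

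The same list was lower in each light chain bin and in each division state. Its medians from the lowest to the highest light chain bin were -1.29, -1.10, -1.30 and -0.90. In cycling cells the median was -1.14 with 17 of 19 genes lower, and in non-cycling cells -1.22 with 18 of 18 lower, beside medians of 0.11 and 0.05 over all genes. Without cells that hold RNA of other lineages it was -1.19, with 18 of 20 lower. Klf2 had log2 ratios of -1.65 in cycling and -1.67 in non-cycling cells, and Fosb -2.58 and -2.89, while Fos had -0.95 in cycling and -3.03 in non-cycling cells.

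Other fetal cells of the same libraries, and adult cells of separate libraries, place these values. In pre-B cells 16 of 19 immediate-early genes were lower and 12 were at least 2-fold lower, where 2.82% of genes measured were, with a median of -1.19. Klf2 had 609 and 99.2 CPM there and Fosb 66.9 and 14.5 CPM, and the difference between the 2 cell classes was not tested. The inducible heat shock genes Hspa1a and Hspa1b, chaperones made under stress, were lower in the same cells. In light-chain B cells Hspa1a had 60 and 5 UMIs (log2 -2.16) and Hspa1b 84 and 3 UMIs (log2 -3.30), and in pre-B cells the log2 ratios of Hspa1a and Hspa1b were -1.41 and -1.98. In adult light-chain B cells the log2 ratios of Hspa1a and Hspa1b were -0.85 and -0.80. The part of these heat shock genes in the immediate-early values was not tested. In mature neutrophils the list's median was -0.08, beside 0.29 over all genes, with 11 of 20 lower and 4 at least 2-fold lower, where 1.70% of genes measured were, and Fosb had 129 and 17.3 CPM and Klf2 244 and 171 CPM. In adult light-chain B cells the median was -0.07, and 0 of 20 genes were at least 2-fold lower, where 3.32% of genes measured were: Fosb had 724 and 800 CPM and Fos 451 and 427 CPM.

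**Figure D4:**
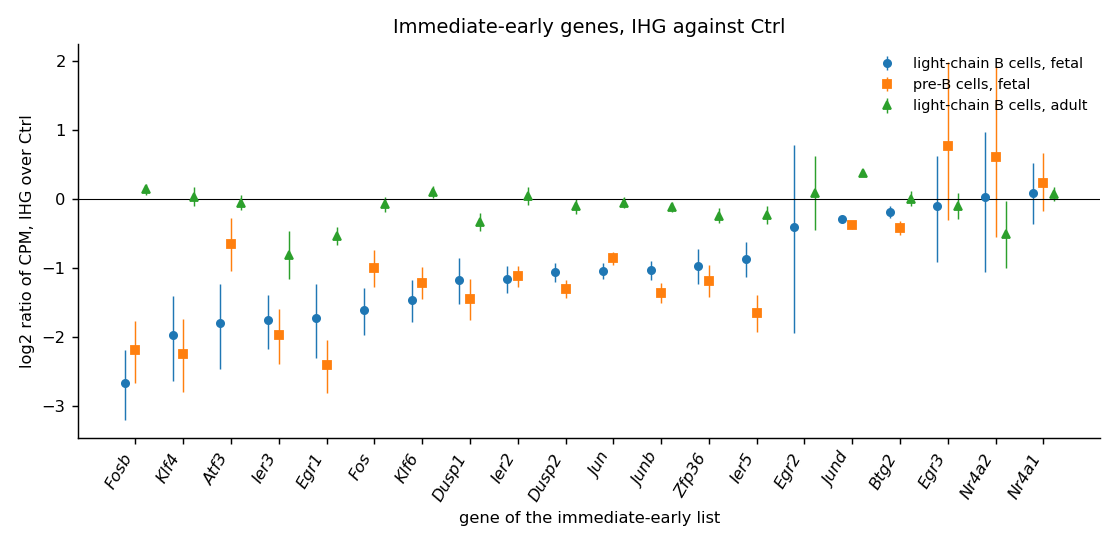
Log2 ratio of IHG over Ctrl CPM for 20 immediate-early genes in fetal light-chain B cells (circles), fetal pre-B cells (squares) and adult light-chain B cells (triangles), 1 library per group, with exact 95% counting intervals. Most fetal points lie between -1 and -3 for genes left of Ier5, while the adult points lie within 1 of 0.

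The stretches of 250 bases before the start of Fos and Fosb are shown because they are the AP-1 genes among the 8 lowest ratios, and they were read for motifs of factors that drive immediate-early transcription (RefSeq, GRCm38.p6, 5′ to 3′ on the gene's strand). Capitals mark the letters TGACG, the core shared by sites of CREB and ATF factors.
Fos, chr12:85473640-85473889, plus strand: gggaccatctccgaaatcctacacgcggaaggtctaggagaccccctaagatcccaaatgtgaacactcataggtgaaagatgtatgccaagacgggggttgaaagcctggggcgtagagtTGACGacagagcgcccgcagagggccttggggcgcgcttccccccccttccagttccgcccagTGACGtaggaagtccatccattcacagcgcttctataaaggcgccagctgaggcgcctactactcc
Fosb, chr7:19310046-19310295, minus strand: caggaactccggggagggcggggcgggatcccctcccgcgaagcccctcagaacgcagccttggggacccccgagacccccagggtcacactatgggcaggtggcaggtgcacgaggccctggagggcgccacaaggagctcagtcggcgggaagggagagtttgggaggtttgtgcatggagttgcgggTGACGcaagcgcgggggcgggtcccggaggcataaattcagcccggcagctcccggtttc
TGACG on either strand was found in 9 of the 17 immediate-early genes that matched a promoter and in 17.9% of 27025 promoters of the same length. Its palindrome TGACGTCA, whose matches are also counted for TGACG, was found in 2 of 17 and in 1.62% of promoters. The CArG box, the site of serum response factor, was found in 1 of 17 and 1.40% of promoters, and the immunoglobulin octamer ATGCAAAT in 0 of 17 and 1.61%. A match is a run of letters and not a measured site. Only the 250 bases before the start were searched, so these counts cannot show sites that lie elsewhere. Egr1 and Klf2 were not among the 17 genes.

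Genes of NF-kB feedback and of activation were lower beside the immediate-early genes. Of 18 NF-kB genes 16 were lower, with a median of -0.57, and 6 were at least 2-fold lower, where 3.48% of all genes measured were. Nfkbid, an inhibitor-family protein, had 108 and 41.6 CPM, Tnfaip3 (A20), which ends the signal, 70.2 and 30.3 CPM, and the adhesion gene Icam1 43.3 and 13.7 CPM. Of 13 activation genes 10 were lower, with a median of -0.73. Cd69, an early activation antigen that holds lymphocytes in tissue, had a log2 ratio of -0.98, and the growth arrest gene Gadd45b had 171 and 77.1 CPM. Cxcr4, the receptor for the stromal chemokine that retains precursors, had 203 and 105 CPM (log2 -0.95) within a homing list whose median was -0.04. Of 9 glucocorticoid-responsive genes 5 were lower, with a median of -0.36. Among them Tsc22d3 (GILZ) had 207 and 126 CPM.

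Most histone and replication genes were lower in the IHG cells. Of 62 histone genes measured 55 were lower and 7 higher, with a median of -1.01. Of the 62, 32 were at least 2-fold lower, where 3.48% of all genes measured were. The 62 genes summed to 17005 CPM in Ctrl and 11430 CPM in IHG. The histone gene Hist1h1b had 1287 CPM in Ctrl and 2621 CPM in IHG in the lowest light chain bin. In the bin of 60 to 100 it had 1220 and 980 CPM. Within cycling cells 54 of 62 were lower, with a median of -0.80. Among non-cycling cells 17 of 34 were lower, with a median of -0.04, so the histone difference was measured in the cycling cells. Of 20 S-phase genes 18 were lower, with a median of -0.34: Cdc6, a licensing factor, had 52.5 and 23.2 CPM, Uhrf1, which maintains DNA methylation, 158 and 87.5 CPM, and Pcna, the sliding clamp, 363 and 227 CPM. The S-phase median was -0.14 within cycling and -0.08 within non-cycling cells. The G2/M list had a median of 0.01 in the sums, with 9 of 20 lower, but -0.41 when each cell counted equally and -0.55 after thinning.

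Surface and class II genes were higher in part. Ms4a1 (chromosome 19, 11249675 to 11266241, minus strand) counted 454 (Ctrl) and 535 (IHG) UMIs, or 87.4 and 253 CPM, a log2 ratio of 1.53 (1.35 to 1.72), and was found in 162 Ctrl cells (13.8%) and 97 IHG cells (24.6%). The ratio was 0.98 within cycling cells, 1.14 (0.93 to 1.34) within non-cycling cells, 2.27 (1.47 to 3.14) within the lowest light chain bin, where it rests on 20 and 39 UMIs, and 0.82 within the highest. Without cells that hold RNA of other lineages it was 1.56. Cd74 (chromosome 18, 60803848 to 60812652, plus strand) had 589 and 1008 CPM (log2 0.78), with -0.26 within cycling and 0.55 within non-cycling cells. Ly6d (chromosome 15, 74762056 to 74763620, minus strand) had 1059 and 1781 CPM (log2 0.75). Fcmr, the receptor for IgM (chromosome 1, 130865669 to 130880791, plus strand), had 24 UMIs in 18 Ctrl cells and 63 UMIs in 28 IHG cells (log2 2.67), and the 10 cells with most held 66.7% and 69.8% of them.

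The classical class II genes did not follow Cd74 in the sums. H2-Aa had a log2 ratio of -0.49, H2-Ab1 of -0.54 and H2-Eb1 of -0.48. In Ctrl 1 cell held 121 of the 448 H2-Aa UMIs, and the 2 cells with most held 31.9% of H2-Aa and 40.6% of H2-Eb1. H2-DMb2, a peptide editor, was higher by 1.23 and the protease gene Ctss by 0.69. The whole list had 6 of 10 genes higher and a median of 0.15, and within non-cycling cells its median was 0.46.

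Lineage and receptor signalling genes showed small differences. The 27 B identity genes had a median of 0.05, close to the 0.11 of all genes, and the 21 receptor signalling genes had -0.01, with Ptpn6 (SHP-1, an inhibitory phosphatase) at 0.82 and Lyn at 0.39. Bank1 was higher by 1.74 and Spib lower, at 189 and 144 CPM (log2 -0.39). Il7r had 351 and 475 CPM (log2 0.44) and Rag1 89.5 and 110 CPM (log2 0.30), within a recombination and precursor list of 18 measured genes with a median of 0.21, which was -0.19 without cycling cells. Among survival genes, which had a median of -0.13, the pro-death gene Pmaip1 (Noxa) had 35.2 and 11.8 CPM, Bcl2l11 (Bim) 63.5 and 36.4 CPM, and the kinase gene Pim1 466 and 272 CPM.

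Energy metabolism genes differed by small and fairly uniform amounts. Of 25 oxidative phosphorylation genes 22 were lower, with a median of -0.29, and Cox6c had 1036 and 755 CPM. Of 19 glycolysis genes 16 were higher, with a median of 0.29: Aldoa had 107 and 188 CPM, Gpi1 104 and 163 CPM, and Gapdh a log2 ratio of 0.27. Within cycling and non-cycling cells the glycolysis medians were 0.39 and 0.47 and the oxidative phosphorylation medians -0.29 and -0.24. Of 15 glucose and insulin response genes 6 were higher, with a median of -0.17, and Txnip, which glucose induces, had 165 and 188 CPM (log2 0.19).

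Other genes at the top of the ranking named no common function. Stk3, a kinase of the Hippo pathway, had 43.1 and 114 CPM (log2 1.40), H1f0, a linker histone of non-dividing cells, 151 and 344 CPM (log2 1.19), and Phgdh, the first enzyme of serine synthesis, 50.2 and 106 CPM (log2 1.07). Prtn3 and Elane, granule genes of myeloid progenitors, had log2 ratios of 1.14 and 1.10. The myeloid progenitor list summed to 243 and 511 CPM with all cells and 24.7 and 111 CPM without the cells with RNA of other lineages. All 10 hepatocyte genes were higher, with a median of 1.37, beside all 5 measured haemoglobin genes lower, with a median of -0.66. Without cells that hold RNA of other lineages the NF-kB median was -0.59, the activation median -0.74, the S-phase median -0.30, the glycolysis median 0.34 and the oxidative phosphorylation median -0.33. The histone genes were not recomputed without those cells, and the part of hepatocyte RNA, whose counts were as high without them, was not tested.

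Lambda cells were a larger share of the light-chain B cells in IHG. A cell was called a lambda cell when its Iglc1, Iglc2 and Iglc3 UMIs together outnumbered its Igkc UMIs. There were 41 in Ctrl, 3.50% (2.52 to 4.72), and 44 in IHG, 11.2% (8.23 to 14.7), a log2 ratio of 1.67 (1.03 to 2.32). Almost all were non-cycling: 39 of 551 non-cycling Ctrl cells, 7.08% (5.08 to 9.55), and 43 of 245 in IHG, 17.6% (13.002 to 22.9), a log2 ratio of 1.31. In the highest light chain bin 11.1% and 22.3% were lambda cells. After thinning to 2000 UMIs, which left out shallower cells, the shares were 1.88% (18 lambda cells) and 9.31% (35 lambda cells). Without cells that hold RNA of other lineages they were 3.48% and 10.8%. In adult light-chain B cells they were 8.47% of 885 in Ctrl and 9.41% of 1381 in IHG.

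In the summed counts Iglc1 had 231 CPM in Ctrl and 719 CPM in IHG, Iglc3 190 and 670 CPM, and Iglc2 25.01 and 39.3 CPM, beside 4852 and 5407 CPM of Igkc. Lambda genes made up 8.42% of fetal light chain UMIs in Ctrl and 20.9% in IHG. Within the lambda UMIs Iglc1 held 51.9% in Ctrl and 50.3% in IHG, and Iglc3 42.5% and 46.9%, while Iglc2 held 5.61% and 2.75%. Adult cells had Iglc2 at 27.8% and 64.3% of lambda UMIs, with the near identity of Iglc2 and Iglc3 shown above. In adult Ctrl 2 cells held 86.9% of Iglc1 UMIs.

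Most lambda cells also held kappa counts. The median lambda share within a lambda cell was 72.0% in Ctrl and 73.1% in IHG, and with a rule of at least 80% lambda UMIs 11 Ctrl and 18 IHG cells remained, 1.02% and 5.66%. Cells with under 20% lambda UMIs numbered 1063 in Ctrl (90.8%) and 297 in IHG (75.4%). The bands of 40 to 60% held 19 and 29 cells, so the number of lambda cells depends on where the line is drawn. Igkc also had UMIs in mature neutrophils, as given above, and the part of such background in the mixed cells was not tested. The selection rule counted Igkc but not Iglc1, so a cell with mostly Iglc1 was taken more readily when it also held kappa counts. The lambda share within a lambda cell thus depends in part on the rule, and that part was not tested.

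**Figure D5:**
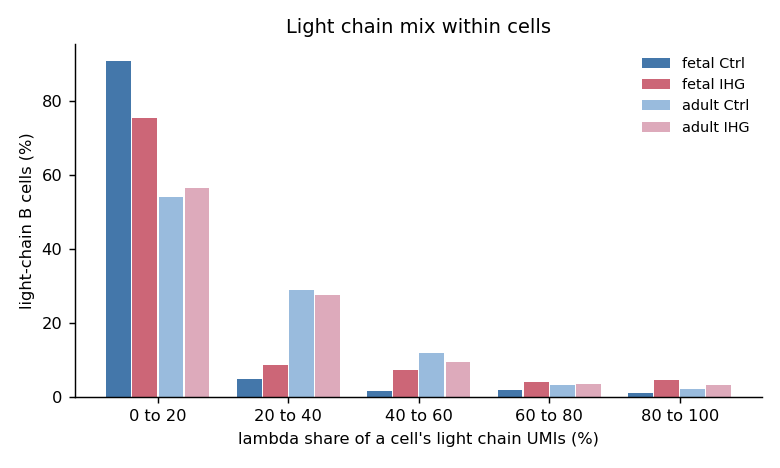
Percentage of light-chain B cells (vertical axis) by the lambda share of a cell's light chain UMIs (horizontal axis, in bands of 20%), for the 4 libraries, 1 library per colour. In the band below 20% stand 90.8% of fetal Ctrl and 75.4% of fetal IHG cells, and the fetal IHG bars are the higher fetal ones in every other band.

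Among non-cycling cells, some maturation genes were higher in lambda cells than in the 512 Ctrl and 202 IHG cells with more kappa. Ly6d had 2814 CPM in kappa and 6091 CPM in lambda cells of Ctrl, and 3291 and 6328 CPM in IHG (log2 1.12 and 0.94). Ccr7 had 232 and 464 CPM in Ctrl and 252 and 508 CPM in IHG. Klf2 had 1220 and 1830 CPM in Ctrl and 313 and 864 CPM in IHG, so lambda cells of IHG were still below the kappa cells of Ctrl. Foxo1, which opens the light chain loci, was higher by 0.90 and 1.06. Il7r had log2 ratios of -0.42 in Ctrl, with a counting interval that spans 0, and -1.05 in IHG. Other maturation genes were not higher in both libraries. Ms4a1 had log2 ratios of 0.67 in Ctrl and -0.27 in IHG, Spib -0.61 and -0.25, and S1pr1 0.04 and -0.32. Of these, only the Ctrl value of Ms4a1 had a counting interval without 0. Counting cycling cells too, 31 of the 41 Ctrl and 33 of the 44 IHG lambda cells were in the highest light chain bin. The part of the light chain level in these ratios was not tested. The lambda cells had median totals of 1894 and 2433 UMIs and the kappa cells 2219.5 and 2973.5, and no test was made.

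Variable gene counts gave a partial view of the repertoire, since counting at the 3′ end reaches the variable part in few molecules. Over all light-chain B cells the kappa variable genes reached 831 UMIs (Ctrl) and 178 UMIs (IHG), 3.02% and 1.23% of light chain UMIs. The genes named were taken for their fetal counts, so their order is a description. Igkv1-35 made up 180 of the Ctrl UMIs, 21.7% of kappa variable UMIs (18.9 to 24.6), and 15 of the IHG ones, 8.43% (4.79 to 13.5), against 1 of 1168 and 1 of 1593 in the adult cells. It was found in 122 Ctrl cells with at most 7 UMIs in one, so no single cell carried it.

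Igkv19-93 made up 149 (17.9%) of the Ctrl and 35 (19.7%) of the IHG fetal counts, beside 0.171% and 0.377% in the adult libraries. Both genes thus stood high in the fetal and low in the adult counts. Igkv1-110 had 7.10% and 7.87% in the fetal and 14.0% and 21.8% in the adult cells, and Igkv1-135 12.8% and 8.99% in the fetal and 11.0% and 2.07% in the adult cells. Of 555 and 135 heavy chain variable UMIs, Ighv4-1 had 44 (7.93%) and 12 (8.89%), with 0.141% and 0.905% in the adult cells. Iglv1 had 66 of 110 lambda variable UMIs in Ctrl and 40 of 56 in IHG.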

How the data were processed

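Liver cells of 4 pooled libraries were measured with the droplet 3′ assay, with about 8000 cells loaded per channel per the labels. The deposited files hold UMI counts per gene and barcode, which the authors made with Cell Ranger (5.0.0 per the file headers; mm10 and Seurat per the submitters' processing notes). Ambient RNA correction and cell annotation are not given in the sources used here. Each table lists 32285 genes, and no clustering was done: cells were taken by counts of named genes. Doublets were called per library with Scrublet in scanpy and kept, with an alternative that leaves them out. For adult libraries, where the automatic threshold marked under 0.5%, the top 5% of scores were used (the 95th percentile).

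UMIs were summed over cells of a class and library and scaled to CPM. Log2 ratios add 0.5 to each count, and a gene was measured with at least 20 UMIs over both sums and counted at 2-fold or more. Named genes are list members with at least 20 UMIs over both sums and 20 CPM in 1 of them. The 8 highest and 8 lowest ratios of a comparison among genes with 50 UMIs and 100 CPM were also named. So were variable genes with at least 20 fetal UMIs. Hist1h2ap, Hist1h1b and list members at 0 or under 20 CPM, such as Nr4a2 and Egr3, were added after their values were seen. The cell class, the gene lists and the bins were chosen with earlier results of these data known. Positions come from GENCODE M21 (GRCm38), promoters from RefSeq (GRCm38.p6). The alternatives changed the light chain, surrogate, gene, mitochondrial and haemoglobin limits, doublets, thinning to 2000 UMIs, scaling, weighting of cells, gene minimum, cycling cells and cells with RNA of other lineages. The counting script was tested on simulated data. The tools were scanpy 1.11.5, scipy 1.17.1, pandas 2.3.3, matplotlib 3.10.9 and numpy 2.4.6 under Python 3.11.15.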

Additional observations from a re-analysis of the deposited data

Results flagged for a closer look

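For 5 gene lists the median log2 ratio of IHG over Ctrl had opposite signs in fetal and adult light-chain B cells, which singled them out. The difference between the ages was not tested, since each group is 1 library, and the medians of all genes were 0.11 (fetal) and -0.08 (adult). The S-phase list had a median of -0.34 in fetal cells and 0.0577 in adult ones. The list of fetal and B-1 cell genes, such as Bhlhe41 and Zbtb20, had 0.27 in the fetal cells with 8 of 11 higher, and -0.59 in the adult cells with 11 of 13 lower. The glycolysis list had 0.29 in the fetal cells and -0.19 in the adult cells, where 15 of 17 were lower. The recombination and precursor list had 0.21 and -0.0655, and the unfolded protein list 0.11 in the fetal cells and -0.25 in the adult cells, where 14 of 15 were lower. Relative to the medians of all genes, the recombination list was at 0.10 and 0.02, with the same sign, and the unfolded protein list at 0.00 in the fetal cells.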

How the results depend on the processing

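Over the alternatives tried, no gene or list median past 2-fold changed sign, but 270 of 333 single gene values left their counting interval under at least 1 of them, and the immediate-early median of IHG against Ctrl stayed between -1.22 and -0.98 over 15 alternatives. Of 22 lists compared between IHG and Ctrl, 11 kept 1 sign in every alternative; the 11 others, all with medians within 0.21 of 0, did not. Median-of-ratios scaling moved the median of all genes from 0.11 to -0.0206, the oxidative phosphorylation median to -0.41 and the 358 higher genes to 230. Thinning gave S-phase and G2/M medians of -0.73 and -0.55. Equal weight per cell gave a G2/M median of -0.41 and 550 lower genes. The class II median against pre-B cells in IHG ran from 0.77 to 2.28, and the G2/M median against adult cells from 2.85 to 6.68 in Ctrl and from 2.62 to 7.42 in IHG. Without cycling cells 225 of 6862 genes measured were higher (3.28%), and the S-phase and precursor medians were -0.0798 and -0.19.

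The count of genes followed the UMI minimum. At 1 UMI 2032 genes were higher and 1401 lower in IHG, and at 100 UMIs 51 and 108, with a heat shock median of 0.21. Against pre-B cells 578 were higher and 1072 lower at 1 UMI, 115 and 205 at 100 UMIs, and 143 and 280 after thinning. Against adult cells 2390 were lower at 1 UMI, 1052 higher and 700 lower at 100 UMIs, and 817 lower after thinning. The log2 ratio of the share of light-chain B cells was -0.57 among cells with Cd79a and Cd79b and -1.28 per pre-B cell, the latter added after seeing the data. That of lambda cells was 2.89 with at least 1000 genes (9 and 30 cells) and 2.45 with the 80% rule (11 and 18 cells); the cause was not tested. No paired analysis was possible because each group is 1 library, and no replicate could be left out for the same reason. Genes under about 20 UMIs have wide counting intervals, and no interval covers differences between animals.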

Other observations

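Some gene groups that the comparisons above did not take up stood as follows in the fetal light-chain B cells, IHG beside Ctrl, with a median of 0.11 over all genes. Of 7 measured genes of Toll-like receptor signalling 4 were higher, with a median of 0.54: Unc93b1, which carries these receptors to endosomes, had 168 and 245 CPM, and Cd180, a surface relative of the receptors in B cells, and its partner Ly86 had log2 ratios of 0.54 and 0.64. Interferon-stimulated genes had 11 of 21 higher and a median of 0.03, with Isg15 at 63.9 and 36.0 CPM. Of 15 genes of the unfolded protein response 10 were higher, with a median of 0.11, while Ddit3 (CHOP) had 79.7 and 37.4 CPM and Atf4 158 and 101 CPM. Heat shock genes had 5 of 10 higher, with Hsp90ab1 at 1016 and 1522 CPM and Hspd1, the mitochondrial chaperonin, at 105 and 183 CPM, while the inducible Hspa1a and Hspa1b had log2 ratios of -2.16 and -3.30 and Dnajb1, their co-chaperone, had 72.5 and 48.7 CPM.

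Cells with a Cd79a and Cd79b pair and both chains at once, with at least 5 light chain and at least 2 surrogate light chain UMIs, numbered 400 in Ctrl and 229 in IHG, and 320 of the Ctrl cells and 160 of the IHG cells (69.9%) cycled. Their immediate-early list had a median of -0.82, with 17 of 19 genes lower in IHG, and Klf2 had 405 and 146 CPM. Cells with neither chain above its limit numbered 151 and 70.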
